A study of Danio rerio with 11 samples.

Results

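The exocrine pancreas digestive enzymes are described here by 7 genes, prss1, ctrb.1, ctrb.2, cela1.6, ela2, ela2l and cell, followed across 11 Affymetrix zebrafish arrays. The 7 symbols were chosen with earlier results of these data known, and the platform annotation gives each of them to a probe set. Other exocrine genes on the array are outside the set, so shares of all probe sets given beside counts of the 7 are a description. The 7 genes are among 8793 gene symbols that the annotation gives alone to a probe set. Each array carried total RNA from whole zebrafish embryos, pooled from all 30 embryos of a cup with 100 ml of medium. The exposed cups had 250 mg of weathered oil emulsion spread on the bottom, a mixture of alkanes, polynuclear aromatic hydrocarbons, sand and seawater that was gathered on the Gulf of Mexico shoreline at Gulfport, Fort Morgan or Perdido Key after the Deepwater Horizon blowout. Gulfport emulsion was present from 0 to 48 h post fertilization (hpf) on 1 array, from 24 to 72 hpf on 1 array and from 48 to 96 hpf on 1 array. Fort Morgan and Perdido Key emulsions were present from 24 to 72 hpf on 1 array each. Control embryos were kept in the same medium without emulsion and were collected at 48 hpf (1 array), 72 hpf (3 arrays) and 96 hpf (2 arrays). No strain is named in the labels. Exposed groups are lone arrays, and nothing in the labels says whether the replicate controls came from separate cups or spawnings, so the p-values below cover only array-to-array spread, possibly of technical origin.

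Acinar cells of the exocrine pancreas make the digestive enzymes of the gut and store most of them as inactive precursors, the zymogens. Trypsin activates the other zymogens once they reach the intestine, chymotrypsins and elastases then cut proteins at other residues, and carboxyl ester lipase splits lipid esters in the presence of bile salts. In zebrafish the acinar cells differentiate while the embryo still lives on yolk, and their enzyme genes become abundant as the larva approaches its first feeding. In whole-embryo RNA, fewer acinar cells and less enzyme RNA per cell cannot be told apart.

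Each of the 7 genes had 1 probe set of its own. A further probe set is annotated to ctrb.1 and ctrb.2 together, and another to cell, cel.1 and cel.2 together. In the gene table of assembly GRCz12tu the chymotrypsinogen genes ctrb.1 and ctrb.2 are neighbours, as are the elastase genes ela2 and ela2l. The identifier of cell is not in that table, which lists cell as a synonym of cel.2. Paralogs of these families may share signal on the array, so values of a single chymotrypsinogen, elastase or ester lipase gene are uncertain to that extent. All values below are on the log2 scale of the RMA signals that the authors deposited, and levels are compared within a probe set only.

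In unexposed embryos all 7 genes rose by 96 hpf, and 3 of them already passed the threshold between 48 and 72 hpf. The genes prss1, ctrb.1 and cela1.6 rose in both intervals, by 11.3-fold to 18.8-fold between 48 and 72 hpf and by 8.91-fold to 14.9-fold between 72 and 96 hpf. The genes ctrb.2, ela2, ela2l and cell did not pass in the first interval and rose by 25.6-fold to 71.2-fold in the second. All 7 genes rose between 72 and 96 hpf, where 6.29% of the 9803 probe sets tested rose and 9.6% passed in either direction. Of the 7, ctrb.2 and cell reached the minimum log2 value of 6 required for testing only in 96 hpf arrays. With no such minimum all 7 again rose, where 4.55% of all 15502 probe sets did. The 3 of 7 that rose between 48 and 72 hpf stand beside 9.23% that rose and 17.9% that passed in either direction. The median log2 difference of the 7 genes was 4.68 for 96 minus 72 hpf, against -0.04 over all probe sets tested, and 0.79 for 72 minus 48 hpf, against -0.03. Tests were limma's, with Benjamini-Hochberg adjustment over all 9803 probe sets and a threshold of 0.05, and the lone 48 hpf control was assumed to vary like the older ones.

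The trypsinogen gene prss1 had a log2 value of 6.19 in the 48 hpf control, of 9.79, 9.88 and 10.19 in the 72 hpf controls and of 12.93 and 13.29 in the 96 hpf controls. The 3 ages did not overlap. Its log2 difference was 3.76 (SE 0.20, limma adjusted p = 3.28e-05) for 72 minus 48 hpf and 3.16 (SE 0.16, adjusted p = 1.54e-05) for 96 minus 72 hpf. By 72 hpf prss1 had covered 54.4% of its log2 rise between the 48 and 96 hpf controls.

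The chymotrypsinogen gene ctrb.1 read 4.11 at 48 hpf, 7.90, 8.36 and 8.76 at 72 hpf and 12.01 and 12.47 at 96 hpf. It climbed in both intervals, by 4.23 (SE 0.31, limma adjusted p = 0.000138) and then by 3.90 (SE 0.24, adjusted p = 4.45e-05). Its neighbour ctrb.2 read 5.24 at 48 hpf, 5.67, 5.60 and 5.97 at 72 hpf and 11.36 and 11.33 at 96 hpf. The 72 hpf values of ctrb.2 all lay above its 48 hpf value, by a difference that did not pass (0.50, SE 0.17, adjusted p = 0.0748). Its later rise measured 5.60 (SE 0.13, adjusted p = 5.59e-07), or 48.3-fold. The probe set shared by both genes rose in both intervals, by 3.10 (adjusted p = 0.000553) and 4.12 (adjusted p = 2.63e-05).

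Among the elastase genes 1 of 3 passed in both intervals. The gene cela1.6, of the elastase 1 family, read 6.08 at 48 hpf, 9.36, 9.39 and 10.00 at 72 hpf and 13.09 and 13.15 at 96 hpf, and rose by 3.5 (SE 0.24, limma adjusted p = 0.000106) and then by 3.54 (SE 0.19, adjusted p = 2.38e-05). The gene ela2 read 6.27 at 48 hpf, 6.86, 6.79 and 7.53 at 72 hpf and 12.41 and 12.35 at 96 hpf. Its early difference of 0.79 (SE 0.27) did not pass (adjusted p = 0.0811) but did without control replicate 3 (0.55, adjusted p = 0.0415), and its later rise was 5.32 (SE 0.21, adjusted p = 6.35e-06). Its neighbour ela2l had the largest late rise of the 7 genes, at 6.15 (SE 0.23, adjusted p = 5.53e-06), with values of 5.60 at 48 hpf, 6.05, 6.07 and 6.76 at 72 hpf and 12.23 and 12.66 at 96 hpf. Its early difference was 0.69 (SE 0.29, adjusted p = 0.150).

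The ester lipase gene cell read 4.38 at 48 hpf, 4.44, 4.44 and 5.09 at 72 hpf and 9.24 and 9.43 at 96 hpf, a difference of 0.28 (SE 0.25, limma adjusted p = 0.517) in the first interval and a rise of 4.68 (SE 0.20, adjusted p = 9.74e-06) in the second. The probe set shared with cel.1 and cel.2 differed by 0.51 (adjusted p = 0.069) and rose by 5.17 (adjusted p = 6.1e-07). Both cell and ctrb.2 reached the minimum log2 value of 6 used as a filter only in 96 hpf arrays. With no filter both again rose between 72 and 96 hpf.

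**Figure D1:**
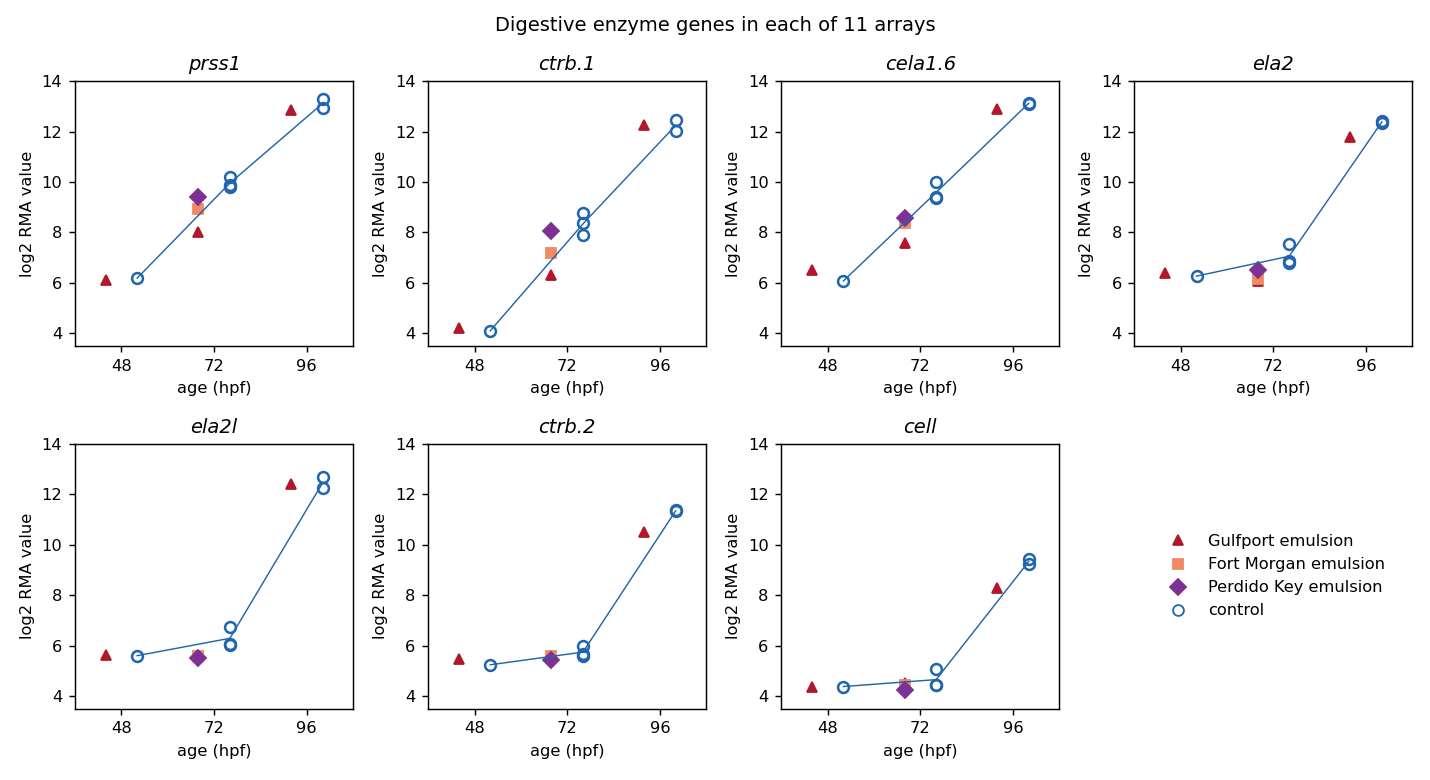
Log2 RMA value (y axis) against age in hpf (x axis) for each of the 7 genes in all 11 arrays, exposed arrays as filled symbols left of the open control circles of the same age, with a line through the control means. The line climbs steeply from 48 hpf on for prss1, ctrb.1 and cela1.6. For ela2, ela2l, ctrb.2 and cell it climbs by 0.28 to 0.79 up to 72 hpf.

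Control replicate 3 at 72 hpf stood highest of the 3 controls of that age in 7 of 7 genes. The same array was highest in 33.5% of all probe sets tested, and in 148 of the 246 whose control level was higher by at least 1 on the log2 scale at 96 than at 72 hpf. Without it the exposed minus control difference at 72 hpf described next was -1.05 in prss1, -0.95 in ctrb.1, -0.11 in ctrb.2, -1.19 in cela1.6, -0.58 in ela2, -0.50 in ela2l and -0.043 in cell, and none passed.

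At 72 hpf all 7 genes had a lower mean in the 3 exposed arrays than in the 3 controls, and none passed over all probe sets tested. The log2 differences ran from -1.40 (cela1.6) to -0.22 (ctrb.2), with a median of -0.81, against -0.02 over all probe sets tested. Of all probe sets, 0.571% passed in this comparison and 0.0918% fell. With limma 5 of the 7 had an unadjusted p under 0.05, as did 8.75% of all probe sets. All 3 exposed arrays lay below all 3 controls in 5 of 7 genes (prss1, ctrb.2, cela1.6, ela2 and ela2l). That held for 6.58% of all probe sets tested, and for 13.4% of the 246 that were higher with age.

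The gene prss1 read 8.02 in the Gulfport array, 8.95 in the Fort Morgan array and 9.40 in the Perdido Key array, against the 9.79 to 10.19 of the controls. The exposed mean was 8.79 ± 0.71 and the control mean 9.95 ± 0.21 (SD, n = 3 each), a log2 difference of -1.17 (SE 0.31, 95% interval -1.88 to -0.45, limma adjusted p = 0.305). The exposed arrays spread over a wider range than the controls, with Gulfport lowest.

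For ctrb.1 the values were 6.32 (Gulfport), 7.17 (Fort Morgan) and 8.05 (Perdido Key), against 7.90 to 8.76 in controls, so that the Perdido Key array lay among the controls. The difference was -1.16 (SE 0.40, 95% interval -2.08 to -0.24, limma adjusted p = 0.478), and -0.73 without the Gulfport array (adjusted p = 0.91). Values of ctrb.2 were 5.55, 5.59 and 5.43 in Gulfport, Fort Morgan and Perdido Key arrays, against 5.60 to 5.97 in controls. The difference in ctrb.2, -0.22 (95% interval -0.49 to 0.05, adjusted p = 0.637), had an interval that included 0.

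The elastase gene cela1.6 came nearest to the threshold, at 7.59, 8.36 and 8.59 in Gulfport, Fort Morgan and Perdido Key arrays, against 9.36, 9.39 and 10.00 in controls. Its difference was -1.40 (SE 0.27, 95% interval -2.03 to -0.78, limma adjusted p = 0.0999), and it passed without the Perdido Key array (-1.61, adjusted p = 0.0441). Values of ela2 were 6.06, 6.17 and 6.52 in the same order, against 6.79 to 7.53 in controls, a difference of -0.81 (95% interval -1.29 to -0.33, adjusted p = 0.265). Values of ela2l were 5.58, 5.59 and 5.51, against 6.05 to 6.76 in controls, a difference of -0.73 (95% interval -1.15 to -0.31, adjusted p = 0.252). All 3 exposed arrays stood at or just under the 48 hpf control value of ela2l, 5.60.

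In the lipase gene cell the groups overlapped, with 4.53, 4.43 and 4.24 in Gulfport, Fort Morgan and Perdido Key arrays, against 4.44, 4.44 and 5.09 in controls (difference -0.26, 95% interval -0.67 to 0.16, limma adjusted p = 0.724). When the contrasts of the 3 emulsions were averaged in a fit whose spread came from controls alone, prss1 (adjusted p = 0.00631) and cela1.6 (adjusted p = 0.00659) passed with the same differences. That fit leaves out the spread between sites. In it 129 of the 9803 probe sets tested passed in either direction, against 56 with the exposed arrays as 1 group.

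Set on the scale of each gene's own control rise, the exposed arrays lay lower on average. The scale restates the same log2 values and starts at the lone 48 hpf control, and a delay was not tested. Controls at 72 hpf had covered 54.4%, 52.0% and 49.8% of the log2 rise between 48 and 96 hpf in prss1, ctrb.1 and cela1.6. The Gulfport array had covered 26.3%, 27.2% and 21.5% in these genes, the Fort Morgan array 39.8%, 37.6% and 32.4%, and the Perdido Key array 46.4%, 48.5% and 35.7%. In ela2, ela2l, ctrb.2 and cell the 72 hpf controls had covered 5.55% to 12.9% on average, and the exposed arrays -3.45% to 5.74%. These control means were raised by replicate 3. In cell the controls had covered 1.18%, 1.22% and 14.26%, so that the Gulfport array, at 2.93%, lay among them. In ctrb.2 the lowest control, at 5.81%, was close to the Fort Morgan array, at 5.74%. In ela2, ela2l and ctrb.2 every exposed array lay below every control. The Gulfport array lay below Fort Morgan, and Fort Morgan below Perdido Key, in 4 of 7 genes (prss1, ctrb.1, cela1.6 and ela2), as in 22.9% of all probe sets tested and 44.3% of the 246 that were higher with age.

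**Figure D2:**
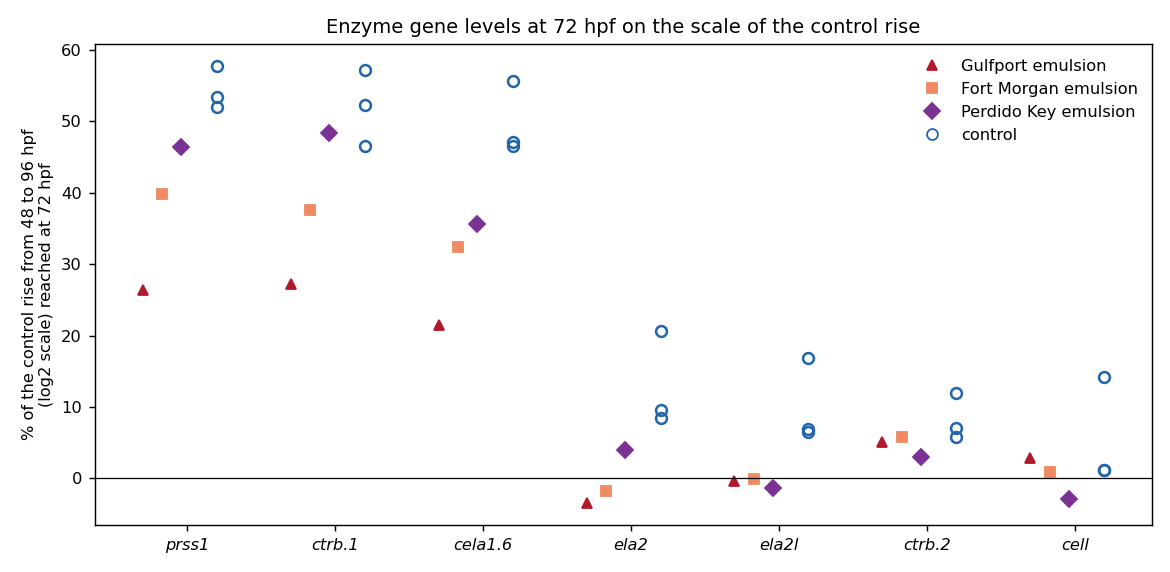
Share of the control log2 rise between 48 and 96 hpf that each array had covered at 72 hpf (y axis, percent) for the 7 genes (x axis), exposed arrays left of the 3 controls. In prss1, ctrb.1 and cela1.6 the Gulfport array lies at 21.5% to 27.2%, below every control, while in the other 4 genes the exposed arrays lie between -3.45% and 5.74% and the highest control, replicate 3, at 20.6% in ela2. In cell control replicates 1 and 2 lie at 1.18% and 1.22%, below the Gulfport array at 2.93%.

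Taken by itself, the Gulfport array at 72 hpf had 3 of 7 genes below its controls past the threshold, where 0.969% of all probe sets fell and 2.71% passed in either direction. The trypsinogen gene prss1 fell 3.83-fold (log2 difference -1.94, SE 0.20, limma adjusted p = 0.00349), ctrb.1 fell 4.05-fold (-2.02, SE 0.31, adjusted p = 0.0168) and cela1.6 fell 3.98-fold (-1.99, SE 0.24, adjusted p = 0.00728). The gene ela2 differed by -1.0 (95% interval -1.61 to -0.38, adjusted p = 0.101), ela2l by -0.72 (-1.39 to -0.04, adjusted p = 0.262), ctrb.2 by -0.19 (-0.58 to 0.19, adjusted p = 0.649) and cell by -0.13 (-0.71 to 0.45, adjusted p = 0.877). The call of ctrb.1 was lost without control replicate 2 (-2.01, adjusted p = 0.0594), and the probe set shared by ctrb.1 and ctrb.2 fell by 1.56 (adjusted p = 0.0336). Without control replicate 3 prss1 (-1.82, adjusted p = 0.0111), ctrb.1 (-1.81, adjusted p = 0.0361) and cela1.6 (-1.78, adjusted p = 0.00749) passed. These differences and the control rise between 48 and 72 hpf share the 72 hpf controls.

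The Fort Morgan array differed by -1.01 in prss1 (95% interval -1.47 to -0.55, limma adjusted p = 0.148), by -1.17 in ctrb.1 (-1.88 to -0.46, adjusted p = 0.366) and by -1.22 in cela1.6 (-1.78 to -0.66, adjusted p = 0.148). The Perdido Key array differed by -0.55 in prss1 (-1.01 to -0.09, adjusted p = 0.928), by -0.29 in ctrb.1 (-1.0 to 0.42, adjusted p = 1) and by -0.99 in cela1.6 (-1.55 to -0.43, adjusted p = 0.379). None of the 7 genes passed for either array, where 0.0204% of all probe sets fell for Fort Morgan and 0% for Perdido Key, and 0.224% passed in either direction for each. At an unadjusted p under 0.05, limma counted 5 of 7 genes for Fort Morgan, where 6.61% of all probe sets passed, and 3 of 7 for Perdido Key, where 4.75% did.

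Differences between emulsions were tested directly over 3 pairs of arrays, and none of the 7 genes passed in any pair. Over all probe sets 0% passed for Gulfport against Fort Morgan, 0.0612% for Gulfport against Perdido Key and 0% for Fort Morgan against Perdido Key. The largest was that of Gulfport minus Perdido Key in ctrb.1 (-1.73, 95% interval -2.60 to -0.86, limma adjusted p = 0.176), followed by prss1 in the same pair (-1.39, -1.95 to -0.82, adjusted p = 0.138). Gulfport minus Fort Morgan gave -0.93 in prss1 (-1.5 to -0.37, adjusted p = 0.747), -0.85 in ctrb.1 (-1.72 to 0.02, adjusted p = 0.843) and -0.77 in cela1.6 (-1.45 to -0.08, adjusted p = 0.841). Unadjusted p-values under 0.05 numbered 2 of 7 for Gulfport against Fort Morgan (5.69% of all probe sets), 3 of 7 for Gulfport against Perdido Key (10.5%) and 1 of 7 for Fort Morgan against Perdido Key (4.79%).

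**Figure D3:**
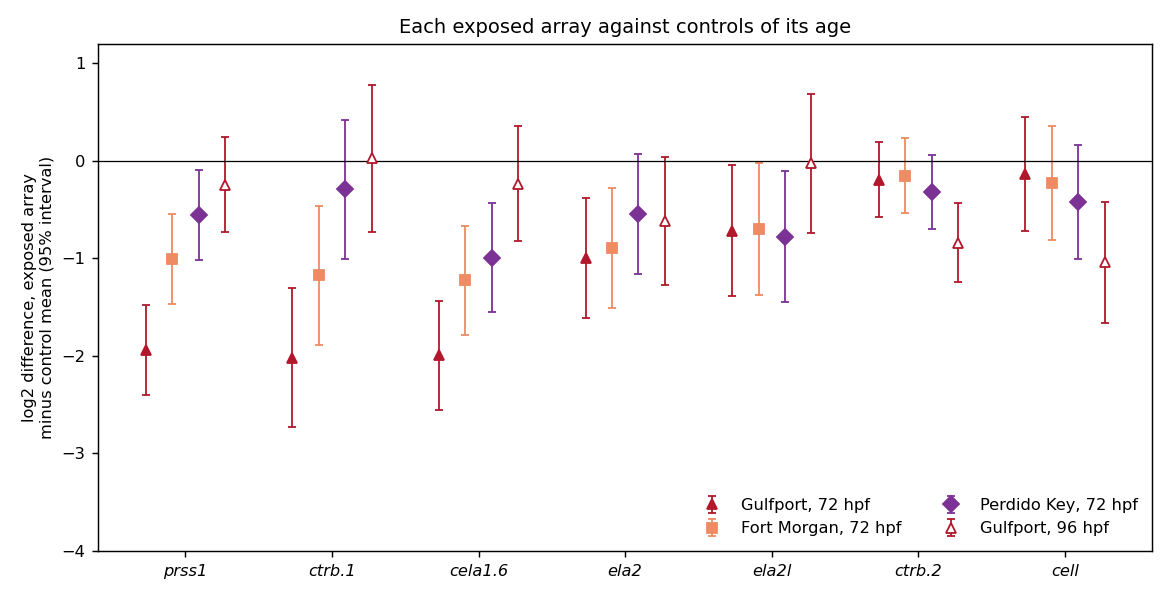
Log2 difference of each lone exposed array from the mean of the controls of its age (y axis) with its 95% limma interval, for the 7 genes (x axis). At 72 hpf the Gulfport array is lowest at about -2 in prss1, ctrb.1 and cela1.6, while at 96 hpf its lowest values are those of ctrb.2 and cell, none of which passed.

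In the Gulfport array at 96 hpf the order of the genes was another. None of the 7 passed against the 2 controls, where 0% of all probe sets fell and 0.0918% passed in either direction, and with limma 2 genes had an unadjusted p under 0.05, cell and ctrb.2, as did 4.63% of all probe sets. The lipase gene cell read 8.29 in the Gulfport array, against 9.24 and 9.43 in controls (-1.04, SE 0.27, 95% interval -1.66 to -0.42, limma adjusted p = 0.471). The chymotrypsinogen gene ctrb.2 read 10.51, against 11.36 and 11.33 in controls (-0.84, SE 0.18, -1.24 to -0.43, adjusted p = 0.228). The elastase gene ela2 read 11.77, against 12.41 and 12.35 in controls (-0.62, -1.27 to 0.04, adjusted p = 1).

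The other 4 genes lay close to their controls at 96 hpf. The gene prss1 read 12.87 in the Gulfport array, against 12.93 and 13.29 in controls (-0.24, 95% interval -0.73 to 0.25, and -0.42 without control replicate 1 or -0.065 without control replicate 2), and cela1.6 read 12.89, against 13.09 and 13.15 (-0.23, -0.83 to 0.36). Values of ctrb.1 (12.27) and ela2l (12.42) lay between the 2 controls of each gene, with differences of 0.026 (-0.73 to 0.78) and -0.026 (-0.74 to 0.69). The Gulfport array lay below both controls in 5 of 7 genes, as in 37.4% of all probe sets tested and 36.2% of the 246 that were higher with age. The probe set shared by cell, cel.1 and cel.2 differed by -0.58 (limma adjusted p = 0.593).

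Each Gulfport window was collected at its own age, so effects of window and age cannot be told apart. The window difference was taken as the Gulfport difference at 96 hpf minus that at 72 hpf. None of the 7 genes passed in its test, where 0% of the 9803 probe sets passed. In prss1 it was 1.70 (95% interval 1.02 to 2.37, limma adjusted p = 0.17), in ctrb.1 2.05 (1.01 to 3.08, adjusted p = 0.195) and in cela1.6 1.76 (0.95 to 2.58, adjusted p = 0.191). It ran the other way in ctrb.2, at -0.64 (-1.20 to -0.08, adjusted p = 0.429), and in cell, at -0.91 (-1.76 to -0.06, adjusted p = 0.476). Of the 7 genes 5 had an unadjusted p under 0.05, as did 9.72% of all probe sets.

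At 48 hpf there was 1 array on each side and no test. The Gulfport array read 6.10 in prss1, 4.23 in ctrb.1, 5.45 in ctrb.2, 6.52 in cela1.6, 6.39 in ela2, 5.63 in ela2l and 4.37 in cell, against 6.19, 4.11, 5.24, 6.08, 6.27, 5.60 and 4.38 in the control array. The largest difference was 0.44, in cela1.6, and none of the 7 reached 1 on the log2 scale, which 0.551% of all probe sets tested did. In 5 of 7 genes the Gulfport array was the higher of the pair, as in 52.3% of all probe sets. In every gene both arrays lay below all arrays of 96 hpf.

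With age as a factor over all 11 arrays, the differences ran from -0.77 in cela1.6 to -0.29 in ctrb.2, with a median of -0.59, and none of the 7 genes passed, where 0.235% of all probe sets fell and 1.31% passed in either direction. Unadjusted limma p-values were under 0.05 in 6 genes and in 11.4% of all probe sets. The lowest adjusted p was that of ela2, at -0.59 (SE 0.17, 95% interval -0.96 to -0.22, limma adjusted p = 0.171), followed by prss1 at -0.73 (-1.28 to -0.19, adjusted p = 0.283). These values average windows in which the genes differed by unlike amounts.

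A list of 38 symbols for other exocrine genes had 14 on the array and 12 tested. The listed symbols try and ctrc are synonyms of prss1 and ela2l and were not among the 14. Of the 12, cela1.5, cpa1, amy2a, cel.1, pla2g1b and pdia2 reached the filter only in 96 hpf arrays, so the count for that rise is given with no filter: 12 of the 14 on the array rose between 72 and 96 hpf in controls, as did 4.55% of all 15502 probe sets. The largest differences were those of the elastase gene ela3l (4.63), the amylase gene amy2a (4.63), the ester lipase gene cel.1 (4.61) and the chymotrypsin-like gene ctrl (4.10). The amylase-like probe set amy2al1 (0.24) did not pass. Between 48 and 72 hpf 6 of the 12 rose, where 9.23% of the probe sets tested did, among them ela3l (2.15), pdia2 (1.67), cpa4 (1.37) and cpb1 (1.32). The genes cel.1 (0.18, limma adjusted p = 0.561) and amy2a (0.47, adjusted p = 0.0909) did not pass in that interval.

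In the Gulfport array at 72 hpf 2 of these 12 genes fell, where 0.969% of all probe sets did. The chymotrypsin-like gene ctrl read 6.65, against 7.60 to 8.0 in controls (-1.17, SE 0.18, limma adjusted p = 0.0186). The protein disulfide isomerase gene pdia2, whose human counterpart is a pancreatic enzyme of protein folding, read 4.28, against 5.31 to 5.37 in controls (-1.07, SE 0.16, adjusted p = 0.0168). All these pdia2 values lie under the filter's log2 value of 6, which this gene reached only in 96 hpf arrays. The largest difference was that of ela3l (-1.54, adjusted p = 0.0615), and the carboxypeptidase B gene cpb1 missed the threshold with its brighter probe set (-0.85, adjusted p = 0.0518) and passed with its dimmer one (-1.39, adjusted p = 0.0161). All 12 lay below 0, with a median of -0.39, against -0.02 over all probe sets tested. With the 3 exposed arrays as 1 group none passed, 11 of 12 lay below 0 and the median was -0.35.

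At 96 hpf all 12 lay below 0 in the Gulfport array, with a median of -0.39, against -0.02 over all probe sets tested, and none passed. Of the 12, 6 reached the filter only in 96 hpf arrays, with cpa1 and pla2g1b among them. The largest differences were those of the carboxypeptidase A gene cpa1 (-1.01, 95% interval -1.57 to -0.45, limma adjusted p = 0.379), the secreted phospholipase gene pla2g1b (-0.66, adjusted p = 0.514) and cpa4 (-0.64, adjusted p = 0.558). Against these, pdia2 lay at -0.0025 at this age.

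Of 20 listed regulators of pancreas development, 13 were on the array and 9 tested. The acinar and pancreas progenitor factor gene ptf1a fell between 48 and 72 hpf in controls (-1.19, SE 0.16, limma adjusted p = 0.00266), as did sox9b (-1.34, SE 0.13, adjusted p = 0.000728), which also acts in cartilage and other tissues. In whole-embryo RNA the values of neither gene can be assigned to the pancreas. At 72 hpf ptf1a read 5.46, 5.50 and 5.30 in Gulfport, Fort Morgan and Perdido Key arrays, against 5.92, 5.58 and 5.82 in controls (-0.35, 95% interval -0.62 to -0.09, adjusted p = 0.455). All 72 hpf values of ptf1a lie under the filter's log2 value of 6. It reached 6 in the 48 hpf control (6.96), the 48 hpf Gulfport array (6.57) and control replicate 2 at 96 hpf (6.06). Of the 9 genes only sox9b fell with the 3 exposed arrays as 1 group at 72 hpf (-0.56, limma adjusted p = 0.0401), where 0.0918% of all probe sets did. The median of the 9 was -0.05 at 72 hpf for the exposed group and 0.0010 for the Gulfport array at 96 hpf.

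Genes listed for the endocrine pancreas, the islets next to the acini, numbered 8 tested of 15 listed. In whole-embryo RNA their signal need not come from the islets alone. None passed in the Gulfport array at 72 or 96 hpf, with medians of 0.0066 and -0.04. The insulin gene ins differed by -0.32 (95% interval -0.68 to 0.04, limma adjusted p = 0.360) at 72 hpf and by -0.34 (-0.72 to 0.04, adjusted p = 1) at 96 hpf. The glucagon gene gcga differed by 0.51 and -0.48 at these ages. Whether exocrine and endocrine genes differed from each other in response was not tested.

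The liver and intestine mature in the same days. Of 13 liver genes tested 2 fell in the Gulfport array at 72 hpf, where 0.969% of all probe sets did, the fatty acid binding protein gene fabp10a (-0.97, SE 0.16, limma adjusted p = 0.0244) and the transferrin gene tfa (-0.77, SE 0.13, adjusted p = 0.0215), with a list median of -0.50 and 7 of 13 below 0. Values of fabp10a were 8.41 in the Gulfport array, 9.47 in the Fort Morgan array and 10.19 in the Perdido Key array, against 9.24 to 9.59 in controls, so that the Perdido Key array was above the controls for this liver gene and below them for prss1 and cela1.6. Their part in the enzyme differences was not tested.

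Of 12 intestine genes, 7 rose between 72 and 96 hpf in controls with or without the filter, where 6.29% of all probe sets tested rose, and 1 of the 12, slc15a1b, reached the filter only in 96 hpf arrays. In the Gulfport array at 72 hpf none of them fell and 1 rose, fabp1b.1 (0.81, limma adjusted p = 0.0192), with a list median of -0.04. For that array 2.71% of all probe sets passed in either direction. Values of fabp1b.1 were alike in the 3 exposed arrays, at 12.13 (Gulfport), 12.15 (Fort Morgan) and 12.11 (Perdido Key), against 11.25 to 11.38 in controls. With the 3 exposed arrays as 1 group 1 of the 12 rose, where 0.571% of all probe sets passed in either direction. The bile acid binding protein gene fabp6 read 5.15 in the Gulfport array, 5.71 in the Fort Morgan array and 6.54 in the Perdido Key array, against 5.66 to 6.78 in controls (-0.30 for the exposed group, 95% interval -1.18 to 0.58, adjusted p = 0.877). The brush border gene vil1 read 6.52, 6.58 and 7.32 in the same order, against 6.04 to 6.65 in controls (0.48, -0.05 to 1.02, adjusted p = 0.599). Listed genes that reached the filter in 1 array or more numbered 13 for liver, 12 for intestine and 8 for endocrine pancreas. Whether their signals were present in every sample was not tested. The 9 reference genes tested, such as actb2, had a median of 0.0095 for the exposed group at 72 hpf.

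**Figure D4:**
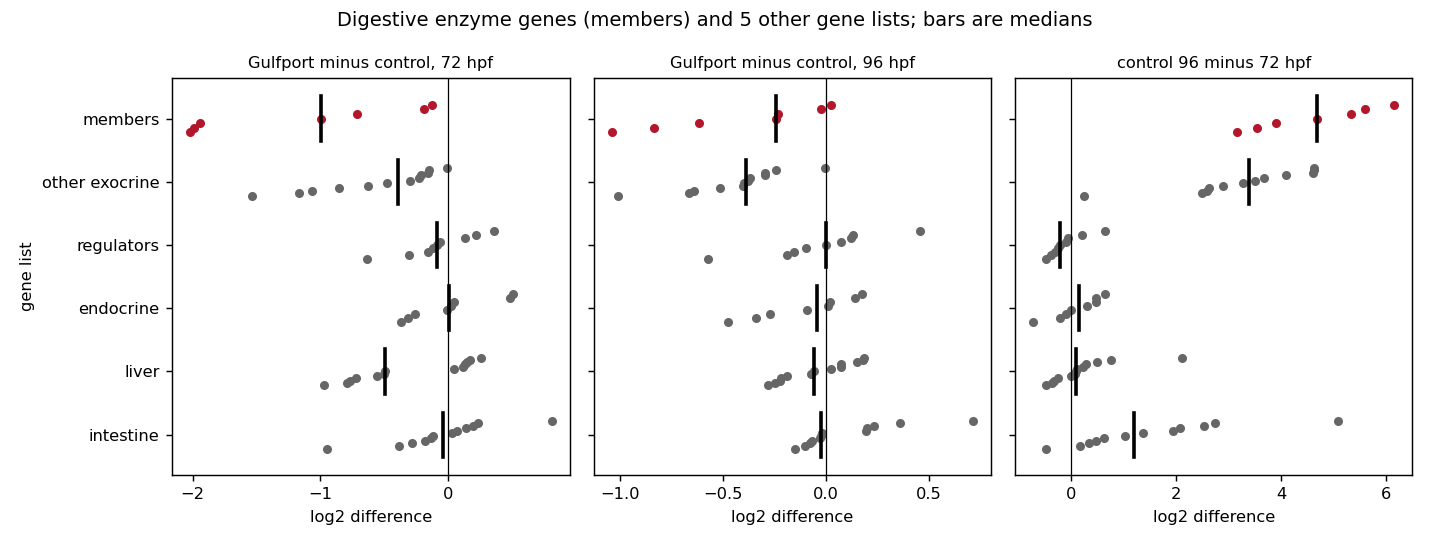
Log2 differences (x axis) of single genes, by list (y axis), for the Gulfport array minus the controls at 72 hpf, for the same at 96 hpf and for the control rise between 72 and 96 hpf, with a vertical bar at each list's median. The 7 enzyme genes, in the top row, have medians of -1.0, -0.24 and 4.68 and reach from -2.02 to -0.13 in the first panel.

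The genes most like the 7 in their course over the 11 arrays were other acinar genes for the most part. Likeness was the root mean square distance, on the log2 scale, between a gene's values and the mean course of the 7 genes, each centred on its own mean. The nearest was ela3l at 0.23, then fabp6 of the intestine at 0.38, ctrl at 0.41, cpb1 at 0.50, the carboxypeptidase gene cpa5 at 0.59, amy2a at 0.59, the chitinase gene chia.2 at 0.60 and zgc:153968 at 0.65. A gene with several probe sets was ranked by its nearest one, which for cpb1 was the dimmer. The 7 genes themselves lay at distances of 0.47 (ela2) to 0.84 (ctrb.1) from their own mean course. The Gulfport array and its controls were among the 11 arrays of this ranking, so the differences of these genes there are a description: -1.49 in cpa5, -0.95 in fabp6, -0.32 in chia.2 and -0.03 in zgc:153968, a gene of no assigned name.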

How the data were processed

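The authors deposited log2 values made with RMA (robust multi-array average), per the submitters' processing notes. Software and version: not given in the sources used here. This method gives the arrays a nearly common distribution (medians 6.37 to 6.42), which hides shifts of total RNA and shrinks differences at low signal. Of 15617 probe sets, 115 AFFX controls were left out, and tests ran on the 9803 that reached 6 on the log2 scale in 1 array or more. Symbols came from the platform annotation, updated by Entrez identifier (10711 matched, 1 changed); 10795 probe sets had 1 symbol, 135 several and 4572 none. A gene with several probe sets was represented by the one of highest mean, and in the ranking by likeness by its nearest one.

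Groups and ages came from sample titles. Tests were limma 3.58.1 (lmFit, eBayes) in R 4.3.3, checked on simulated data, with Benjamini-Hochberg adjustment over all tested probe sets: 3 exposed against 3 control arrays at 72 hpf, exposure with age as a factor over 11 arrays, and contrasts of lone arrays, sites, windows and control ages from fits with 1 mean per group, in which all spread came from the 72 and 96 hpf controls. Named were the 7 genes, up to 4 genes of largest difference per list and comparison, and the 8 genes of nearest course. Values outside this rule, of amy2al1 between 72 and 96 hpf, cel.1 and amy2a between 48 and 72 hpf and pdia2 at 96 hpf, and the names of genes that reached the filter only at 96 hpf, were chosen after they were seen. The members and lists were chosen with earlier results of these data known. Sequences were not used here. Figures were drawn with Python 3.11.15 and matplotlib 3.10.9. Alternatives were other filters, centring, a further quantile normalization, a variance trend, array weights, other sets of arrays, a replicate block and leaving out each array.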

Additional observations from a re-analysis of the deposited data

Results flagged for a closer look

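In 5 genes the exposed and control arrays stood in opposite order at different ages, and these differences between ages were not tested at 48 hpf, where each side had 1 array. At 48 hpf the Gulfport array was above the control by 0.44 in cela1.6, 0.21 in ctrb.2, 0.12 in ctrb.1, 0.11 in ela2 and 0.023 in ela2l, while every exposed array at 72 hpf lay below the mean of its controls in these genes. The value of ela2l turned below 0 under either rescaling. At 96 hpf ctrb.1 lay 0.026 above its control mean, against differences below 0 in every exposed array at 72 hpf; the test of the Gulfport difference at 96 minus that at 72 hpf gave 2.05 for this gene (limma adjusted p = 0.195).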

How the results depend on the processing

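With the 3 exposed arrays as 1 group at 72 hpf the count was 0, and 2 (prss1 and cela1.6) when the 3 emulsion contrasts were averaged with control spread; leaving out each array gave 0 to 1. Leaving out each array, the count for Gulfport at 72 hpf was 2 to 3 and that between 48 and 72 hpf 3 to 4. Leaving out each array, the Gulfport difference of cell at 72 hpf ranged between -0.24 and 0.086, and at 96 hpf that of ctrb.1 between -0.20 and 0.26 and that of ela2l between -0.24 and 0.19. After a further quantile normalization ela2l differed by 0.020 at 96 hpf, and at 48 hpf by -0.015, or by -0.00305 with arrays centred on their medians. The cause was not tested. With the replicate number as a replicate block all 7 genes rose between 72 and 96 hpf (prss1 by 3.27). Deviations of same-numbered controls had a correlation of -0.07 over probe sets. With only replicates 1 and 2 at both ages, this single value cannot show whether the numbers pair the arrays. The fit of control ages over all 11 arrays gave the same values by construction. Over all probe sets, the 56 calls at 72 hpf became 129 with averaged emulsion contrasts and 23 to 83 without 1 array; the 128 with age as a factor became 75 with Gulfport and controls only and 81 without the Gulfport array at 96 hpf; the 266 of Gulfport at 72 hpf became 100 to 320 without 1 array. The 22 calls each of Fort Morgan and Perdido Key became 41 and 36 with a variance trend, and those of Fort Morgan 12 to 21 without 1 array and 14 with the arrays of 72 hpf alone; the 9 of Gulfport at 96 hpf became 26 with that trend, 18 with no filter and 5 to 14 without 1 array. The 6 between Gulfport and Perdido Key became 0 to 16 without 1 array, the 0 between Gulfport and Fort Morgan up to 3, and the 0 of the window difference became 50 without the first 96 hpf control. The 941 calls between 72 and 96 hpf became 551 to 788 without 1 of the 72 hpf controls. Fewer still remained without either 96 hpf control, which leaves a lone array at that age. Between 48 and 72 hpf the calls were 1759 of 9803 probe sets tested, and 1033 of the 4246 tested with the stricter filter. Lone arrays and dim early signals limit precision.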
